A study of Homo sapiens with 18 samples.

Results

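Hairpin sh43, directed against the transcription factor ZHX2, was compared with a control hairpin (shCtrl) in 786-O cells. 786-O is an established line of human clear-cell kidney cancer without working VHL, the ubiquitin ligase subunit that marks HIF alpha proteins for degradation. The comparison holds 6 of the 18 libraries of the series, chosen by their titles, with 3 libraries of 786-O cells with sh43 and 3 of 786-O cells with shCtrl. A further 3 libraries of the same experiment carry sh45, another hairpin to ZHX2, and serve to show where sh43 differs from it. Every group is the same VHL-deficient line with a hairpin vector, in medium with fetal bovine serum, and the labels name no further treatment or time. The remaining libraries belong to a USP13 knockdown experiment and were not used here. Nothing in the labels tells whether replicates were grown as separate cultures, so p-values here speak of the spread among these libraries, and that spread may be technical.

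ZHX2 is a nuclear protein with zinc fingers and homeodomains, and it pairs with itself and with its relatives ZHX1 and ZHX3. In cells with functional VHL it is hydroxylated on proline and handed to VHL for destruction, so that it accumulates in clear-cell renal carcinoma. In such cells it has been described as a partner of NF-kB that occupies many of the same promoters. The series title places it downstream of the deubiquitinating enzyme USP13. A short hairpin RNA lowers the messenger RNA of its target through the small RNA machinery of the cell, and each hairpin can also act on other transcripts that resemble its target.

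Total estimated counts per library lay between 12733710 and 15613947 under sh43, between 12889837 and 15603033 under sh45, and between 12870676 and 14309636 in the shCtrl libraries. Levels are given as counts per 1e+06 counts (CPM) scaled with TMM factors and not corrected for transcript length, so that they compare libraries and not genes. The first principal component, with 58.7% of the variance, put the 3 sh43 libraries at one end, the 3 shCtrl libraries at the other and the sh45 libraries between them. The second, with 25.2%, set the sh45 libraries (-36.3 to -34.5) apart from both sh43 (10.2 to 10.5) and shCtrl libraries (24.2 to 26.2). Among replicates shCtrl replicate 2 stood furthest from its group, with a chi-square per degree of freedom of counts of 5.39 and 6.46 against the other shCtrl libraries, which gave 2.47 between themselves, and without it 9285 genes were called between sh43 and shCtrl, against 9353 with it. Mitochondrial rRNA took up a share of 1.55 ± 0.0312% under sh43, 3.09 ± 0.261% under sh45 and 1.25 ± 0.0725% in shCtrl libraries of all counts (SD, n = 3 each), and its part in the results was not tested. Among markers of the line, the kidney factor PAX8 averaged 436 CPM under sh43, 480.0 CPM under sh45 and 348 CPM under shCtrl, and the intermediate filament vimentin (VIM) averaged 2720, 3720 and 3720 CPM in that order of groups. The hypoxia marker CA9 stayed under 1 CPM in all 9 libraries, and the proximal tubule receptor LRP2 was at 0 in all of them. Of 16 leukocyte markers 2 could be tested, PTPRC, CD3E, CD3D, MS4A1 and GNLY were at 0 in all 9 libraries, and the summed level of the list was 20.7 to 21.5 CPM under sh43 and 38.4 to 46.1 CPM under shCtrl, most of it from the lysosomal protein CD68. Of 12 endothelial markers 3 could be tested, with a summed level of 6.6 to 7.41 CPM under sh43 and 2.33 to 3.26 CPM under shCtrl, and CDH5 and EMCN were at 0. Of 12 fibroblast and mural markers 6 could be tested, with sums of 25.03 to 27.8 CPM under sh43 and 41.9 to 44.1 CPM under shCtrl, and COL3A1 and DCN were at 0.

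ZHX2 messenger RNA was lowest under sh43. It averaged 40.2 ± 2.74 CPM under sh43, 84.2 ± 5.87 CPM under sh45 and 342.8 ± 2.17 CPM under shCtrl (SD, n = 3 each), and no sh43 library came near the controls. The log2 change of sh43 against shCtrl was -3.09 (SE 0.06; edgeR, adjusted p = 4.55e-24), and shCtrl libraries held 8.51 times the level. The hairpins themselves differed, with ZHX2 lower under sh43 than under sh45 by a log2 difference of -1.06 (SE 0.06; edgeR, adjusted p = 5.7e-14). In the authors' deposited TPM values, which correct for transcript length, ZHX2 stood at 15.8 ± 1.1 TPM under sh43, 30.3 ± 2.77 TPM under sh45 and 142 ± 3.31 TPM under shCtrl. The labels conflict on the target, since hairpins 43 and 45 stand under USP13 in the treatment protocol but under ZHX2 in titles and characteristics; the grouping follows the titles, and USP13 levels are given beside those of ZHX2. The sequence of sh43 is not given in the sources used here.

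Its relatives changed far less. ZHX1, which forms dimers with ZHX2, measured 34.3, 31.5 and 34.6 CPM under sh43, against 34.7, 37.6 and 40.8 CPM under shCtrl. All sh43 values lay below the control values, and the log2 change was -0.18 (edgeR, adjusted p = 0.0681), short of the threshold, although it passed under scaling to the upper quartile (edgeR, adjusted p = 0.0228), with effective-length offsets (edgeR, adjusted p = 0.0466) and without shCtrl replicate 1 (edgeR, adjusted p = 0.0306). ZHX3, the third member of the family, averaged 65.9 ± 2.5 CPM under sh43 and 64.5 ± 4.31 CPM under shCtrl, with overlapping libraries. HOMEZ, the more distant homeodomain relative, fell by 0.41 on the log2 scale, a call that ended without sh43 replicate 1 (edgeR, adjusted p = 0.051), without shCtrl replicate 2 (edgeR, adjusted p = 0.0637) and with DESeq2 (adjusted p = 0.0526). USP13 averaged 35.2 ± 3.56 CPM under sh43 and 41.4 ± 3.01 CPM under shCtrl and fell by 0.23 in log2 (edgeR, adjusted p = 0.0155). That call ended without sh43 replicate 1 (edgeR, adjusted p = 0.126), without shCtrl replicate 3 (edgeR, adjusted p = 0.0991) and with DESeq2 (adjusted p = 0.0534).

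**Figure D1:**
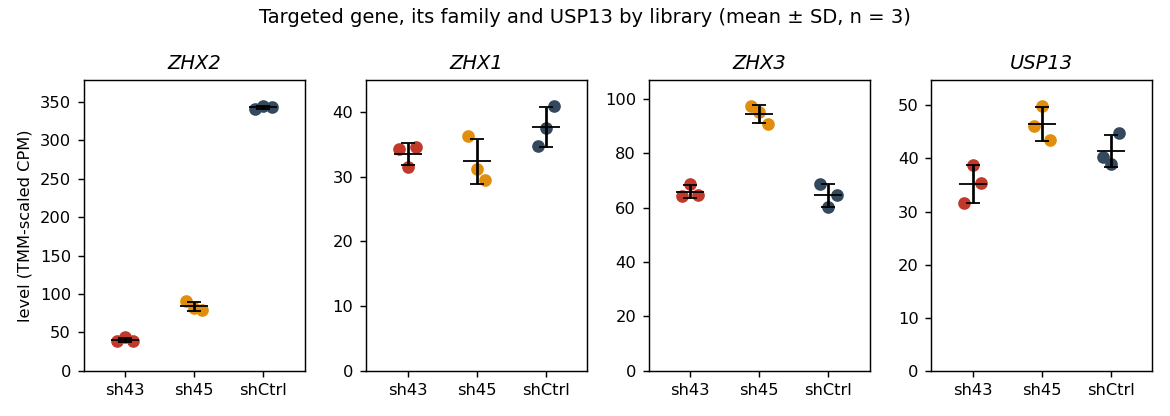
Level of ZHX2, ZHX1, ZHX3 and USP13 in each library (TMM-scaled CPM, axis from 0), with points for libraries and bars for the mean and SD of 3. ZHX2 stands at 40.2 CPM under sh43, 84.2 CPM under sh45 and 342.8 CPM under shCtrl, while the sh43 means of the other genes lie close to their control means.

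On chromosome 8, where RefSeq places ZHX2 from 122780379 to 122974510 on GRCh38.p14, the 3 tested genes on either side had smaller changes than ZHX2. HAS2, a hyaluronan synthase, rose by 2.90 on the log2 scale from a low level, with 2.16, 2.11 and 1.83 CPM under sh43, against 0.383, 0.29 and 0.137 CPM under shCtrl. The libraries of both groups did not overlap. MTBP rose by 0.59 and the syntrophin SNTB1 by 0.20, DERL1, an endoplasmic reticulum degradation factor, fell by 0.18, and C8orf76 had a log2 change of -0.02 that did not pass. The call of TBC1D31, higher by 0.23, ended without sh43 replicate 1 (edgeR, adjusted p = 0.13), without sh43 replicate 3 (edgeR, adjusted p = 0.0814), without shCtrl replicate 1 (edgeR, adjusted p = 0.174), with DESeq2 (adjusted p = 0.0734), under upper-quartile scaling (edgeR, adjusted p = 0.11) and with a mean of at least 1 CPM required (edgeR, adjusted p = 0.0502).

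Across the transcriptome, sh43 went with change in most expressed genes. Of 13597 genes tested, 9353 passed at an adjusted p under 0.05, which is 68.8%, with 4560 higher (33.5%) and 4793 lower (35.3%) under sh43 (edgeR quasi-likelihood F-test, Benjamini-Hochberg adjustment over all genes tested). Because so many passed, a gene's passing says little, and the size of its change carries more of the description. Counts of called members in the gene lists below stand beside 33.5% higher and 35.3% lower among all tested genes. For sh43 against sh45 these shares were 32.7% and 34.2%, and for sh45 against shCtrl 25.3% and 27.3%. Past 2-fold, 789 genes were higher (5.8%) and 1343 lower (9.88%), together 15.7% of those tested. Past 4-fold there were 215 higher and 301 lower genes, past 8-fold 79 and 84, and past 16-fold 33 and 27. The median log2 change over all tested genes was -0.02. The libraries of both groups did not overlap in 70.3% of genes, with sh43 higher in 34.4% and lower in 35.9%. Genes named from the lists below were mostly chosen for the size of their changes, which favours groups lying apart. TMM scaling centres the changes, so the median near 0 and the near-equal split are in part set by it. A shift of most genes in one direction could not show. With upper-quartile factors 4188 genes were higher and 5151 lower. In bulk libraries, fewer cells of a type and less RNA per cell cannot be told apart.

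**Figure D2:**
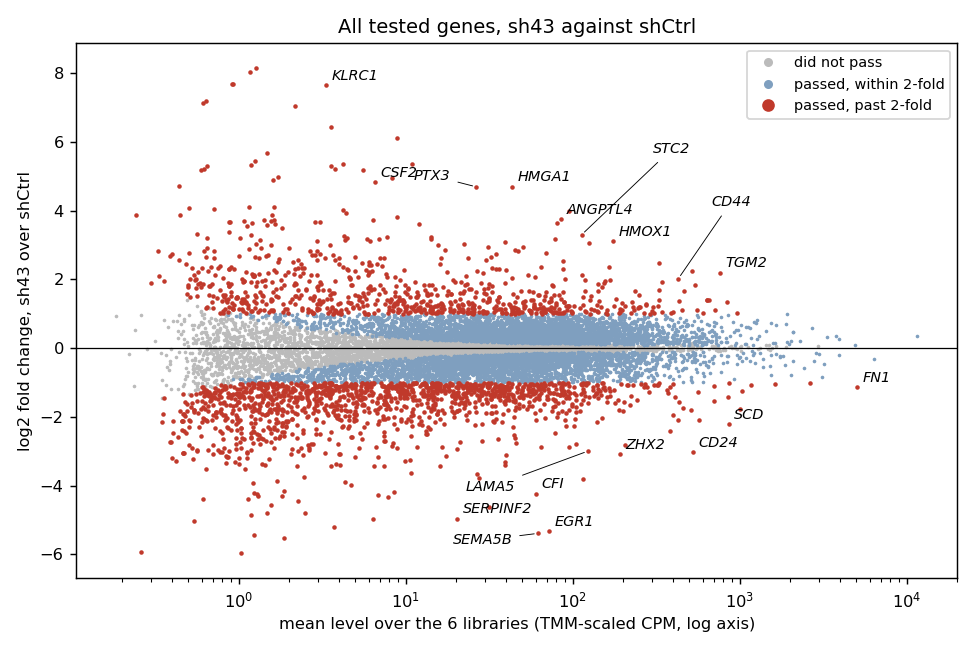
Log2 fold change of sh43 over shCtrl for each of the 13597 tested genes, against its mean level over the 6 libraries on a log axis, with some genes named. Red points are the 2132 genes that passed past 2-fold, 789 of them higher and 1343 lower, and they are found among genes of low and of high level.

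The 12 largest rises among genes with at least 5 CPM under sh43 or shCtrl came from low levels in the control. Of sh43 and shCtrl, only sh43 reached 5 CPM. Under sh45, HMGA1, PTX3, CSF2 and ASB2 also passed 5 CPM, averaging 34.8, 20.8, 18.6 and 7.3 CPM, and the others did not. Genes were admitted only if the 3 libraries of each group did not overlap, so their separation follows from that choice. KLRC1, an inhibitory receptor of natural killer cells, had 7.43, 5.69 and 6.91 CPM under sh43, while 1 read was counted over the 3 shCtrl libraries. The ratio of summed counts, 279 to 1 after the same scaling, was 274.0 with an exact 95% interval of 48.9 to 10900 that covers counting error only. KRT81, a hair keratin, had 6.78, 6.39 and 8.19 CPM under sh43 and 3 reads in all under shCtrl, a ratio of 97.4 (interval 33.0 to 475). Both genes were far above every control library under sh43. SCG5, a chaperone of prohormone convertase, had 16.6, 16 and 19.6 CPM under sh43, against 0.23, 0.218 and 0.275 CPM under shCtrl. The collagenase MMP1 had 23.1, 18.3 and 22.3 CPM under sh43, against 0.612, 0.725 and 0.206 CPM under shCtrl. In each of these genes the lowest sh43 library lay well above the highest shCtrl library. CSF2, the cytokine GM-CSF, averaged 12.6 CPM under sh43, the lowest library at 10.96 CPM, and had 0.306, 0.218 and 0.755 CPM under shCtrl. Others from levels under 1 CPM were the Notch ligand DNER, the carboxypeptidase CPA4, the aryl hydrocarbon receptor target CYP1A1, the ubiquitin ligase adaptor ASB2 and the palmitoylation cofactor family member GOLGA7B, with log2 changes between 4.96 and 5.35.

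HMGA1 and PTX3 were among these 12 as well. HMGA1, an architectural chromatin protein that is high in many carcinomas, had 81.04, 80.5 and 89.01 CPM under sh43, against 2.37, 3.7 and 3.5 CPM under shCtrl. The groups lay far apart, and the log2 change was 4.70 (SE 0.11; edgeR, adjusted p = 1.81e-22). PTX3, a secreted pattern-recognition protein, had 53.1, 51 and 48.6 CPM under sh43, against 2.07, 1.52 and 2.27 CPM under shCtrl, with a log2 change of 4.70 (SE 0.13; edgeR, adjusted p = 2.8e-21). Each of the 12 was also higher under sh43 than under sh45 by the test of that difference, except CSF2, which was lower under sh43 than under sh45 (log2 difference -0.56; edgeR, adjusted p = 0.00048).

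The largest falls included the guidance molecule SEMA5B and the immediate early factors EGR1 and FOS. Here too the choice of genes required groups that did not overlap. SEMA5B, a transmembrane semaphorin, had 2.67, 2.81 and 3.18 CPM under sh43, against 118.4, 124.5 and 119.6 CPM under shCtrl (log2 change -5.39, SE 0.1; edgeR, adjusted p = 1.07e-24). EGR1, a zinc-finger factor that is switched on within minutes of growth factor signals, had 2.45, 5.69 and 2.07 CPM under sh43, against 149.4, 133.9 and 140.3 CPM under shCtrl. FOS, the founding subunit of AP-1, had 1.66, 3.19 and 2.38 CPM under sh43, against 60.6, 61.7 and 59.5 CPM under shCtrl. Every sh43 library of these genes lay far below the lowest control library. Factor I of complement (CFI), a protease that inactivates C3b, had 5.62, 5.88 and 6.76 CPM under sh43, against 112.2, 115 and 116.5 CPM under shCtrl. SERPINF2, the inhibitor of plasmin, had 0.649, 1.73 and 1.35 CPM under sh43, against 38.7, 42.5 and 37.06 CPM under shCtrl. The remaining falls, each with every sh43 library under the controls, were the vitamin C transporter SLC23A1, the calcium channel subunit TMEM37, the actin bundler ESPN, the brain creatine kinase CKB, PIANP and the noncoding LINC02532, with log2 changes between -4.98 and -3.88. ZFHX4-AS1 fell by 5.19, a value that is uncertain because libraries without strand information cannot part an antisense RNA from an overlapping gene. FOS was the gene of these 12 whose difference between sh43 and sh45 did not pass (log2 difference -0.40; edgeR, adjusted p = 0.0758).

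**Figure D3:**
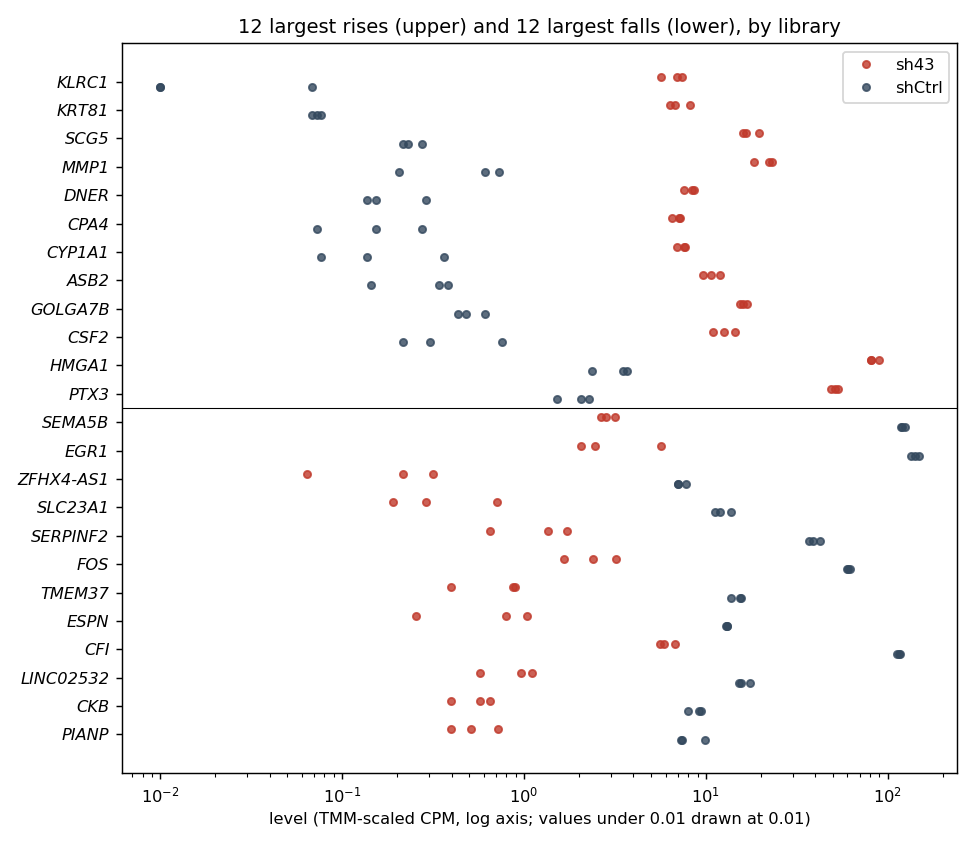
Level in each sh43 and shCtrl library (TMM-scaled CPM, log axis) of the 12 genes that rose most and, below the line, the 12 that fell most among genes with at least 5 CPM in a group. The 3 sh43 points and the 3 shCtrl points of every gene are separate, as the choice of the genes required.

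The genes with the smallest p-values are given next, a choice that favours groups lying apart. TGM2, a transglutaminase that crosslinks matrix proteins, averaged 1253 ± 37.3 CPM under sh43 and 272.5 ± 6.03 CPM under shCtrl (SD, n = 3 each), a log2 change of 2.20 (SE 0.04; edgeR, adjusted p = 1.15e-24). The hyaluronan receptor CD44 averaged 690.3 ± 3.74 CPM under sh43 and 169.4 ± 3.49 CPM under shCtrl, and the organic anion transporter SLCO4A1 averaged 853.7 ± 20.6 CPM under sh43 and 179.8 ± 8.51 CPM under shCtrl. ACP5, the tartrate-resistant acid phosphatase, averaged 177.9 ± 5 CPM under sh43 and 11.3 ± 1.08 CPM under shCtrl. All sh43 libraries of these genes lay above all controls. STC2, a secreted glycoprotein of stress responses, averaged 206.1 ± 8.53 CPM under sh43, 22.7 ± 1.57 CPM under sh45 and 20.8 ± 0.865 CPM under shCtrl, and it was higher under sh43 than under sh45 (log2 difference 3.18; edgeR, adjusted p = 6.57e-23). Among the falls, the surface glycoprotein CD24 averaged 115.9 ± 1.24 CPM under sh43 and 940.5 ± 15.2 CPM under shCtrl. The retinal dehydrogenase ALDH1A1 averaged 215 ± 3.06 CPM under sh43 and 919.8 ± 21.1 CPM under shCtrl.

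Genes of ribosome biogenesis, tRNA loading, the proteasome and chaperones mostly rose under sh43, while cytosolic ribosomal protein genes went in both directions. All 29 ribosome biogenesis genes rose, against 33.5% of all tested genes, with log2 changes of 0.32 to 1.72 and a median of 0.87. These genes make and process ribosomal RNA in the nucleolus. LYAR, a nucleolar processing factor, had 48.02, 41.7 and 45.4 CPM under sh43, against 11.8, 15.2 and 14 CPM under shCtrl (log2 change 1.72, SE 0.1; edgeR, adjusted p = 1.61e-14). The U3 small nucleolar RNA binding protein RRP9 averaged 51.1 ± 2.8 CPM under sh43 and 20.2 ± 0.572 CPM under shCtrl, and the ribosomal RNA methyltransferase NOP2 averaged 90.8 ± 3.02 CPM under sh43 and 37.3 ± 2.41 CPM under shCtrl. No sh43 library of these genes overlapped the controls. RRS1 rose by 1.26 on the log2 scale, and the assembly factor BYSL was 2.2 times as high under sh43. Of the 29 genes, 27 were higher under sh43 than under sh45, against 32.7% of all tested genes, none was lower and 2 did not pass. Under sh45 itself 10 rose and 10 fell, against 25.3% and 27.3% of all tested genes, with a median of 0.08.

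Of 76 tested cytosolic ribosomal protein genes 29 rose (38.2%, near the 33.5% of all tested genes), 14 fell (18.4%, against 35.3%) and 33 did not pass, with log2 changes between -0.51 and 0.68 and a median of 0.04 that changed sign under some alternatives (from -0.003 to 0.1, with 23 to 43 members higher). RPS26 (0.68) and RPL38 (0.50) were among the rises and RPL10A (-0.51) and RPL12 (-0.43) were the largest falls. Compared with sh45, 67 of the 76 were lower under sh43 and 1 was higher, against 34.2% and 32.7% of all tested genes. Under sh45 itself 74 of them rose, against 25.3% of all tested genes, with a median of 0.44. Ribosomal protein genes have many processed pseudogene copies in the genome, between which reads can be shared, so that single members are less certain than the list.

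Aminoacyl-tRNA synthetases, which load amino acids onto their tRNAs, rose in 19 of 20 cases, with a median log2 change of 0.55. The tryptophan enzyme WARS1 averaged 170.4 ± 8.74 CPM under sh43 and 60.1 ± 3.57 CPM under shCtrl (2.84 times as high; edgeR, adjusted p = 1.82e-17). The tyrosine enzyme YARS1 (1.23), the glycine enzyme GARS1 (1.22) and the phenylalanine subunit FARSB (0.79) followed on the log2 scale, and the methionine enzyme MARS1 was 2.15 times as high under sh43. QARS1, the glutamine enzyme, was the member that fell, averaging 128.8 ± 1.54 CPM under sh43 and 182.2 ± 3.96 CPM under shCtrl. By the test of the difference 18 of the 20 were higher under sh43 than under sh45, against 32.7% of all tested genes. QARS1 was lower under sh43.

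Proteasome subunits rose in all 31 cases, with log2 changes of 0.19 to 1.41 and a median of 0.77. The list spans the catalytic core (PSMA and PSMB genes), the ATPase ring (PSMC genes) and the lid and base of the regulatory particle (PSMD genes). PSMD2, a ubiquitin receptor scaffold of the base, had 915.4, 917.3 and 951.5 CPM under sh43, 352.2, 379.8 and 374.6 CPM under sh45, and 356.5, 357 and 331.5 CPM under shCtrl. The sh43 libraries alone stood out, and the log2 change of sh43 against shCtrl was 1.41 (SE 0.04; edgeR, adjusted p = 4.42e-20). The ATPase PSMC4 rose by 1.03, the catalytic subunit PSMB7 by 1.03, the lid subunit PSMD12 by 1.03 and the deubiquitinating lid subunit PSMD14 by 0.94. Of the 31 genes 30 were higher under sh43 than under sh45, against 32.7% of all tested genes. The summed level of the list was 6049 to 6238 CPM in sh43 libraries and 3485 to 3681 CPM in shCtrl libraries. Over the alternatives tried, 30 or 31 members passed as higher.

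Heat shock proteins and chaperones rose in 23 of 25 cases, with a median log2 change of 0.71. HSP90AA1, the inducible cytosolic HSP90, averaged 1286 ± 22.6 CPM under sh43, 446.9 ± 12.6 CPM under sh45 and 633.8 ± 14.2 CPM under shCtrl. It rose by 1.02 under sh43 and fell by 0.50 under sh45, both against shCtrl (edgeR, adjusted p = 4.13e-18 and 3.14e-11). The chaperonin ring subunit CCT5 averaged 970.9 ± 16.9 CPM under sh43 and 446.9 ± 1.62 CPM under shCtrl, and the J-protein DNAJB6 averaged 351.5 ± 3.33 CPM under sh43 and 154 ± 3.67 CPM under shCtrl. The groups of these genes were apart by many times their SD, which their choice by size of change favours. HSPA1A, the stress-inducible HSP70, rose by 1.37, but it shares nearly all of its sequence with HSPA1B, so the division of reads between them is uncertain. The small heat shock proteins HSPB8 (-0.55) and HSPB1 (-0.14) fell, and the call of HSPB1 ended without sh43 replicate 2 (edgeR, adjusted p = 0.059) or shCtrl replicate 2 (edgeR, adjusted p = 0.14). Under sh45 4 of the 25 rose and 14 fell, against 25.3% and 27.3% of all tested genes, with a median of -0.18. By the test of the difference 23 were higher under sh43 than under sh45, against 32.7% of all tested genes.

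**Figure D4:**
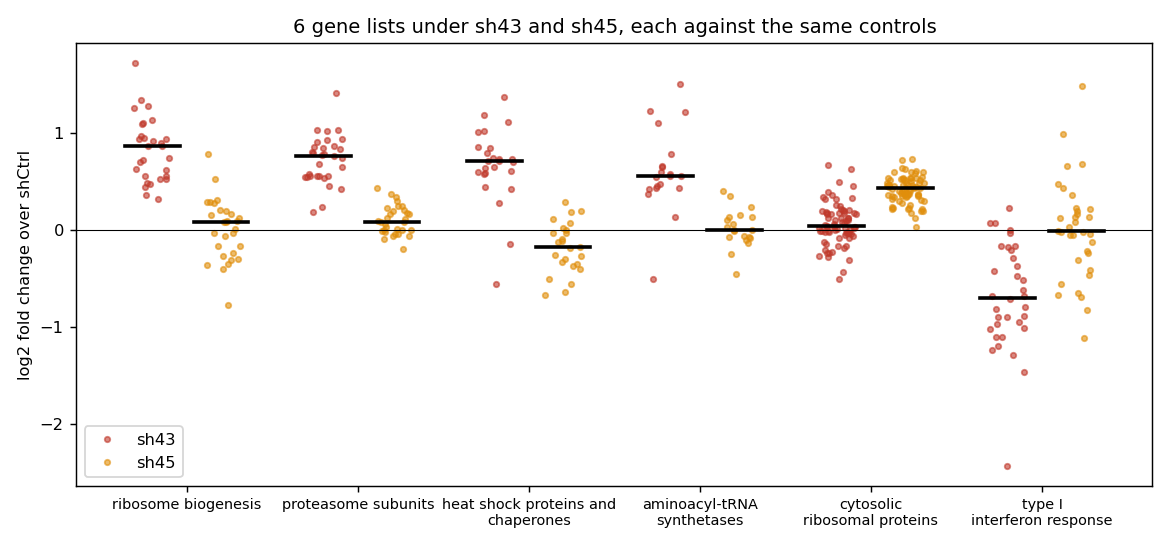
Log2 fold change over shCtrl of each tested member of 6 gene lists under sh43 and under sh45, with a bar at each median and a line at 0; both hairpins are set against the same 3 control libraries. Under sh43 the medians are 0.87 for ribosome biogenesis, 0.77 for proteasome subunits, 0.71 for chaperones, 0.55 for aminoacyl-tRNA synthetases, 0.04 for ribosomal proteins and -0.69 for interferon genes, and under sh45 they are 0.08, 0.09, -0.18, 0.004, 0.44 and -0.01.

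Promoters of a few members are shown, as the 250 bases before the RefSeq start site on GRCh38.p14, with a sequence element in capitals. The member shown from a list was chosen for its match. It was the called gene with the element that changed most in the direction of its list.
HSPA1A, chr6:31815293-31815542, plus strand: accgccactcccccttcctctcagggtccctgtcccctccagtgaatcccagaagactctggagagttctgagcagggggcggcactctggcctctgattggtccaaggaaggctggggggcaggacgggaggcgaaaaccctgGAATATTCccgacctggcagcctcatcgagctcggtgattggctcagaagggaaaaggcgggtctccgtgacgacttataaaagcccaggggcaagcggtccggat
IARS1, chr9:92293698-92293947, minus strand: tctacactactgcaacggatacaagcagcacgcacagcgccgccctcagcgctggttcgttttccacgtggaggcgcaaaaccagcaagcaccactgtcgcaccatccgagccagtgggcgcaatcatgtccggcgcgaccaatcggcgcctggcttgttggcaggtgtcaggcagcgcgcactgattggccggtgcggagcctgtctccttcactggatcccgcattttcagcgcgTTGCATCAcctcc
IFIT1, chr10:89392373-89392622, plus strand: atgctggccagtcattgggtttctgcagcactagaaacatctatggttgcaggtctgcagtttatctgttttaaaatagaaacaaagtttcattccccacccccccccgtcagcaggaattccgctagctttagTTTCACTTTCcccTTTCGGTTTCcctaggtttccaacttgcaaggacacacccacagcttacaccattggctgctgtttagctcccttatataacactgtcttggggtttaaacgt

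The capitals in HSPA1A mark the heat shock element core GAANNTTC, which was found in 8 of 23 chaperone promoters (34.8%) and in 4.09% of all 10931 promoters of tested genes. In IARS1, the isoleucine enzyme, they mark the C/EBP-ATF composite site TGATGCAA on the opposite strand, found in 2 of 16 synthetase promoters (12.5%) and in 0.32% of all. In IFIT1 they mark matches to the interferon-stimulated response element core on the opposite strand, found in 14 of 26 promoters of the interferon list (53.8%) and in 2.36% of all. The E-box CACGTG was found in 3 of 24 ribosome biogenesis promoters (12.5%) and in 8.84% of all. The antioxidant response element core TGACNNNGC was found in 3 of 26 proteasome promoters (11.5%), in 6 of 18 promoters of the NRF2 list (33.3%) and in 12.1% of all. Both strands were searched, overlapping matches were counted once per promoter, and a match describes the letters in this window and not a site in use.

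Oxidative stress genes rose in 18 of 24 cases (75%), with a median log2 change of 0.34, while 5 fell. HMOX1, the heme-degrading oxygenase, had 332.9, 283.2 and 324.1 CPM under sh43, 29.6, 28.5 and 28.2 CPM under sh45, and 37.4, 36.1 and 35.5 CPM under shCtrl. It stood high in the sh43 libraries only, with a log2 change of 3.11 against shCtrl (SE 0.07; edgeR, adjusted p = 8.61e-24) and of 3.45 against sh45 (edgeR, adjusted p = 1.6e-23). The cystine importer SLC7A11 averaged 145.2 ± 2.56 CPM under sh43 and 29.6 ± 2.96 CPM under shCtrl. The aldose reductase AKR1B10 rose by 1.83, and the metallothioneins MT1X and MT2A by 2.94 and 1.34. Unlike HMOX1, MT1X was also high under sh45, with 79.5 ± 1.11 CPM beside 88.7 ± 9.95 CPM under sh43 and 11.5 ± 0.691 CPM under shCtrl. NFE2L2, which encodes NRF2 itself, fell by 0.27, and the hydroxysteroid dehydrogenase AKR1C3, the aldose reductase AKR1B1, the ferritin light chain FTL and the malic enzyme ME1 also fell, by 0.47 or less. By the test of the difference, 21 of the 24 genes were higher under sh43 than under sh45, against 32.7% of all tested genes.

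Amino acid stress genes moved the same way in part. Of 25 genes of ATF4 and the unfolded protein response, 12 rose (48%, against 33.5% of all tested genes). There 5 fell (20%, against 35.3%), and the median log2 change was 0.09. CHAC1, which degrades glutathione, averaged 27.9 ± 1.86 CPM under sh43 and 9.36 ± 0.688 CPM under shCtrl, and the serine synthesis enzyme PSAT1 averaged 282.9 ± 11.2 CPM under sh43 and 112.7 ± 1 CPM under shCtrl. DDIT3, also called CHOP, rose by 1.23, the C/EBP factor CEBPB by 1.13 and the endoplasmic reticulum protein SDF2L1 by 1.06. SESN3 fell with 7 reads under sh43 and 83 under shCtrl in all, a ratio of 0.083 (exact 95% interval 0.0324 to 0.179). DNAJB9 and DDIT4 fell by 0.40 and 0.38. ATF6 fell by 0.18, a call that ended in 6 of 14 alternatives, among them the fits without sh43 replicate 2 (edgeR, adjusted p = 0.0521), without sh43 replicate 3 (edgeR, adjusted p = 0.0689), without shCtrl replicate 1 (edgeR, adjusted p = 0.0895) and without shCtrl replicate 3 (edgeR, adjusted p = 0.0556). Of 20 amino acid transporters 9 rose (45%) and 7 fell (35%). SLC1A3, a glutamate importer, rose by 1.70 and the shared heavy chain SLC3A2 by 0.96, while the taurine importer SLC6A6 fell by 1.57 and the cationic amino acid importer SLC7A2 by 2.01.

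Feedback regulators of MAPK signalling rose while several immediate early genes fell. These genes are switched on by the RAS-ERK cascade, the immediate early factors first and the feedback inhibitors after them. Of 18 feedback regulators and ETS factors, 15 rose and 2 fell, with a median log2 change of 1.06, and 10 rose past 2-fold (55.6% against 5.8% of all tested genes). SPRY4, a Sprouty inhibitor of receptor tyrosine kinases, had 15.4, 10.9 and 9.62 CPM under sh43, against 0.842, 0.798 and 1.03 CPM under shCtrl. The ETS factor ETV4 had 8.87, 10.4 and 12.6 CPM under sh43, against 0.689, 1.6 and 1.17 CPM under shCtrl, and the ERK phosphatase DUSP5 averaged 107.8 ± 4.25 CPM under sh43 and 20.8 ± 1.42 CPM under shCtrl. The groups were apart in each. DUSP6 and PHLDA1 rose by 1.94 and 1.91. The epithelial ETS factor ELF3 averaged 34.8 ± 1.77 CPM under sh43 and 167.9 ± 4.75 CPM under shCtrl, and the phosphatase DUSP1 fell by 0.78.

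Of 19 AP-1 and other immediate early genes, 10 rose (52.6%, against 33.5% of all tested genes) and 8 fell (42.1%, against 35.3%). Beside EGR1 and FOS, FOSB fell by 2.88 and JUNB by 1.37, and EGR2 had 9 reads under sh43 and 58 under shCtrl in all, a ratio of 0.153 (exact 95% interval 0.0665 to 0.31). FOSL1, the FRA-1 subunit that accumulates under lasting ERK signals, rose to 266 ± 7.79 CPM under sh43, against 66.9 ± 5.81 CPM under shCtrl. MAFF rose by 1.60, KLF4 by 1.17, IER3 by 0.73 and JUN by 0.65. Both lists held genes that went in opposite directions.

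**Figure D5:**
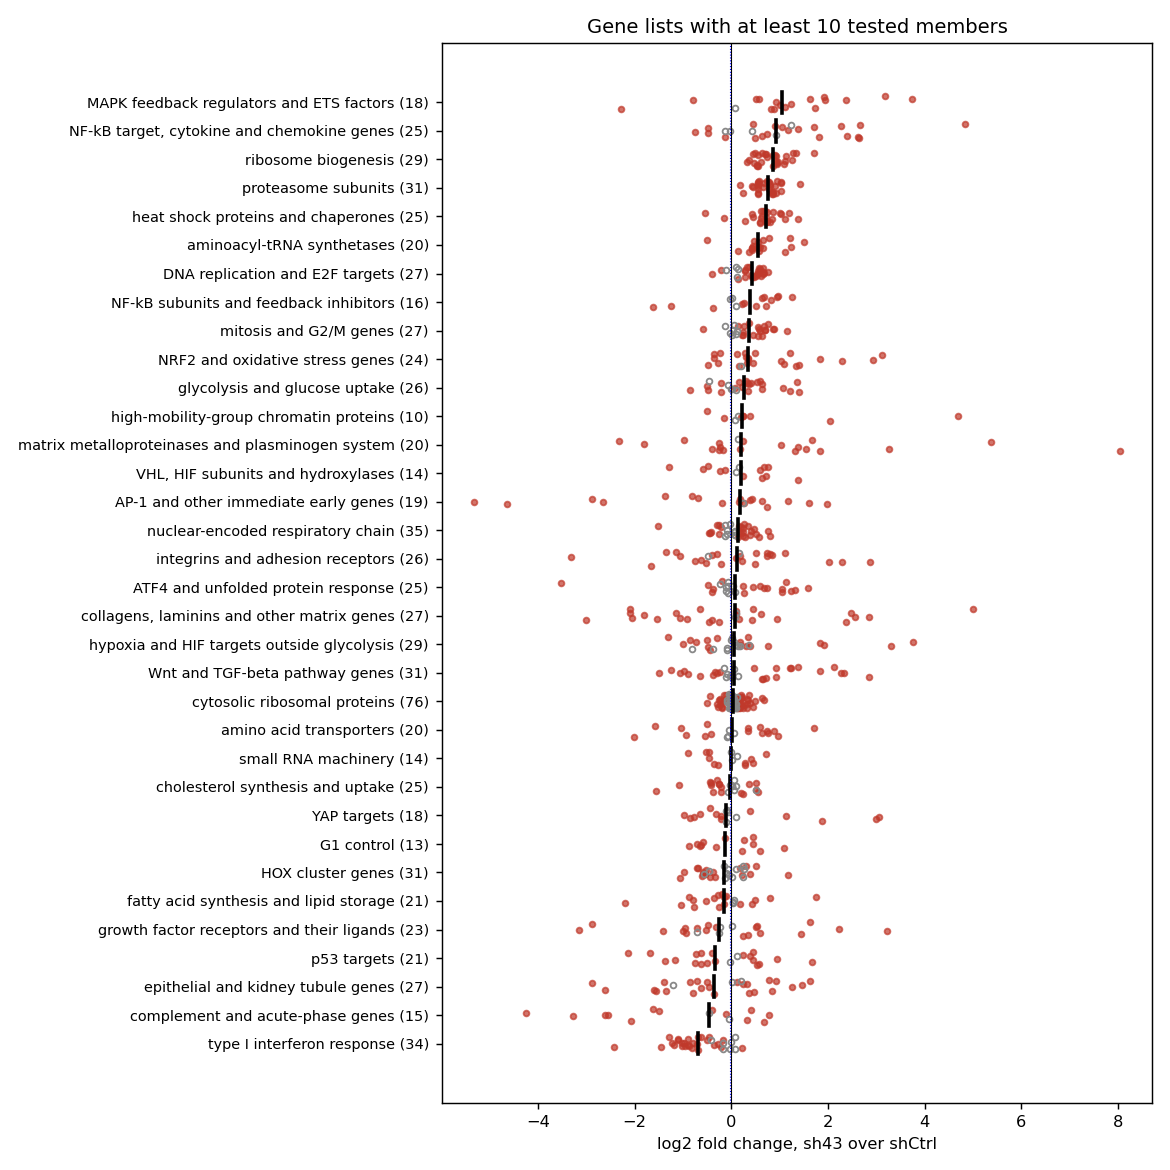
Log2 fold change of sh43 over shCtrl for each tested member of the gene lists with at least 10 tested members, ordered by median, with the number tested in brackets. Filled points passed the test and open points did not, black bars are medians and the dotted line is the median of all tested genes (-0.02); medians run from 1.06 for MAPK feedback regulators to -0.69 for interferon genes.

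NF-kB subunits changed little in level. RELA, the p65 subunit, averaged 105.8 ± 4.32 CPM under sh43 and 90.8 ± 4.79 CPM under shCtrl and rose by 0.22 in log2 (SE 0.06; edgeR, adjusted p = 0.00163). NFKB1, the precursor of p50, averaged 70.4 ± 5.18 CPM under sh43 and 58.9 ± 2.24 CPM under shCtrl and rose by 0.26. Of 16 subunits and feedback inhibitors 10 rose (62.5%, against 33.5% of all tested genes) and 3 fell (18.8%, against 35.3%), with a median of 0.38. The inhibitors TNFAIP3 (1.26), NFKBIE (0.97), NFKBIB (0.94) and NFKBIA (0.81) were among the rises. NFKBIZ (-1.61) and BCL3 (-1.25), nuclear proteins related to NFKBIA, were among the falls. NFKBIZ averaged 88.6 ± 8.98 CPM under sh43 and 270.6 ± 6.69 CPM under shCtrl. REL fell by 0.38, a call that ended in 6 of 14 alternatives, among them the fits without sh43 replicate 1 (edgeR, adjusted p = 0.0855), without sh43 replicate 3 (edgeR, adjusted p = 0.137), without shCtrl replicate 1 (edgeR, adjusted p = 0.128) and without shCtrl replicate 3 (edgeR, adjusted p = 0.107).

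Cytokines and other NF-kB target genes rose in 16 of 25 cases and fell in 4, with a median of 0.93, and 11 rose past 2-fold. Interleukin 8 (CXCL8) averaged 56.4 ± 0.826 CPM under sh43 and 8.88 ± 0.719 CPM under shCtrl, and interleukin 6 (IL6) averaged 27.9 ± 1.43 CPM under sh43 and 4.56 ± 0.114 CPM under shCtrl. TNFSF15 and the adaptor TRAF1 rose by 2.64 and 2.39. For CXCL8 the difference between the hairpins did not pass (log2 difference -0.14; edgeR, adjusted p = 0.0668). By the test of the difference 9 of the 25 genes were higher and 9 lower under sh43 than under sh45. These counts lie near the shares of all tested genes, 32.7% higher and 34.2% lower.

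Type I interferon response genes were mostly lower. Of 34 tested genes 26 fell (76.5% against 35.3% of all tested genes), 1 rose and 7 did not pass, with a median log2 change of -0.69. The interferon regulatory factor IRF7 had 4.33, 3.39 and 5.4 CPM under sh43, 12.2, 11.7 and 11.3 CPM under sh45, and 11.6, 11.8 and 12.4 CPM under shCtrl. Its sh43 libraries lay apart from both other groups. The antiviral proteins IFIT2 and IFIT1 fell by 1.28 and 1.24 and the radical enzyme RSAD2 by 1.19. IFIT1 averaged 23.3 ± 1.96 CPM under sh43 and 54.6 ± 4.83 CPM under shCtrl. The immunoproteasome subunit PSMB9 was the member that rose, by 0.23, and its call ended under upper-quartile scaling (edgeR, adjusted p = 0.0552), without sh43 replicate 3 (edgeR, adjusted p = 0.0503) and without shCtrl replicate 3 (edgeR, adjusted p = 0.127). Under sh45 8 members rose and 11 fell, with a median of -0.01, not far from the 25.3% and 27.3% of all tested genes. By the test of the difference 29 of the 34 were lower under sh43 than under sh45, against 34.2% of all tested genes.

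Complement and acute-phase genes fell in 9 of 15 cases (60%, against 35.3% of all tested genes). They rose in 4 (26.7%, against 33.5%), with a median of -0.47. Beside CFI, complement factor B (CFB), part of the alternative C3 convertase, had 1.23, 2.3 and 1.99 CPM under sh43, 20.5, 19.8 and 18.5 CPM under sh45, and 17.5, 21.3 and 15.2 CPM under shCtrl. It was low under sh43 alone. The acute-phase protein SAA2 fell by 2.55. C4A fell by 2.62, but it is nearly identical to C4B and its count is uncertain. C3 rose by 0.67, LCN2 by 0.78, the decay factor CD55 by 0.42 and SERPINA1 by 0.33.

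Genes of DNA replication and mitosis were modestly higher. Of 27 DNA replication and E2F target genes 21 rose and 2 fell, with a median log2 change of 0.43 and none past 2-fold. The replicative helicase component CDC45 averaged 29.1 ± 3.83 CPM under sh43 and 17.2 ± 0.585 CPM under shCtrl, CDT1 rose by 0.68, MCM10 by 0.66, ORC1 by 0.66 and GINS1 by 0.65. The helicase subunit MCM6 (-0.21) was among the falls. Of 27 mitotic genes 19 rose and 1, the spindle protein HMMR (-0.58), fell, with a median of 0.38. The kinase AURKB averaged 64.8 ± 0.63 CPM under sh43 and 29.2 ± 1.77 CPM under shCtrl, and CDC20, PLK1, FOXM1 and BIRC5 rose by 0.88, 0.87, 0.76 and 0.71. Replication genes were higher under sh43 than under sh45 in 23 of 27 cases, and mitotic genes in 10 of 27, with 7 lower. Among all tested genes 32.7% were higher and 34.2% lower, so the mitotic counts lie not far from those shares.

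Of 13 genes of G1 control 6 rose (46.2%, against 33.5% of all tested genes) and 7 fell (53.8%, against 35.3%). The cyclin-dependent kinase subunit CKS1B rose by 1.09 and CCND3 by 0.59, and CDK2 and CDK4 by 0.45 each. The kinase inhibitors CDKN1C, CDKN2C, CDKN1B and CDKN1A fell by 0.88, 0.72, 0.66 and 0.58, and the ubiquitin ligase receptor SKP2 by 0.63. Of 21 targets of p53 8 rose (38.1%, against 33.5% of all tested genes) and 11 fell (52.4%, against 35.3%), with a median of -0.35. The antiproliferative BTG2 averaged 12.5 ± 0.413 CPM under sh43 and 55.1 ± 2.39 CPM under shCtrl. TP53INP1, the zinc-finger gene ZMAT3 and the DNA damage sensors XPC and DDB2 fell by 1.69, 1.37, 1.16 and 0.76. GDF15, a stress cytokine, rose by 1.67, PLK3 by 0.94 and the death receptor TNFRSF10B by 0.57.

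In the VHL and HIF pathway, EPAS1, which encodes HIF-2 alpha, rose. It had 352.3, 351.3 and 357.2 CPM under sh43, 294.7, 266.1 and 266.8 CPM under sh45, and 207.6, 204.5 and 215.1 CPM under shCtrl. The 3 groups did not overlap, and the log2 change of sh43 against shCtrl was 0.76 (SE 0.05; edgeR, adjusted p = 1.12e-13). VHL, whose protein is not functional in this line, rose by 0.24 (SE 0.07; edgeR, adjusted p = 0.00237). HIF1A averaged 36.9 ± 1.91 CPM under sh43 and 33 ± 2.75 CPM under shCtrl, and the log2 change was 0.16 (edgeR, adjusted p = 0.103), short of the threshold, although it passed without shCtrl replicate 2 (log2 change 0.25; edgeR, adjusted p = 0.00927). Among partners and hydroxylases ARNT2 rose by 1.38, RBX1 by 0.73 and EGLN2 by 0.69, while the hydroxylases EGLN3 and EGLN1 fell by 1.30 and 0.59 and the HIF partner ARNT by 0.47. In all, 7 of the 14 tested genes rose (50%, against 33.5% of all tested genes) and 5 fell (35.7%, against 35.3%).

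Of 29 targets of HIF outside glycolysis 10 rose (34.5%, against 33.5% of all tested genes), 8 fell (27.6%, against 35.3%) and 11 did not pass, shares near those of all genes, with a median log2 change of 0.06. ANGPTL4, an inhibitor of lipoprotein lipase, averaged 158.6 ± 18.6 CPM under sh43 and 11.7 ± 0.391 CPM under shCtrl. CA12 rose by 0.77. NDRG1 averaged 1758 ± 42.1 CPM under sh43 and 3534 ± 101 CPM under shCtrl, and the MYC antagonist MXI1, the collagen hydroxylase PLOD2, the guidance protein NTN4 and the repressor BHLHE40 fell by 1.31, 0.72, 0.86 and 0.50. VEGFA, the growth factor of vessels, chosen here after its values were seen, averaged 606.9 ± 5 CPM under sh43, 1405 ± 62.6 CPM under sh45 and 537.9 ± 16.2 CPM under shCtrl. The call of CXCR4, with 20 reads under sh43 and 5 under shCtrl in all, ended without sh43 replicate 1 (edgeR, adjusted p = 0.0848), without sh43 replicate 3 (edgeR, adjusted p = 0.0732) and without shCtrl replicate 1 (edgeR, adjusted p = 0.125).

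Of 26 genes of glycolysis and glucose uptake 16 rose (61.5%, against 33.5% of all tested genes). There 5 fell (19.2%, against 35.3%), and the median was 0.26. The lactate exporter SLC16A3, the regulator PFKFB4, the glucose importer SLC2A3 and the hexokinases HK2 and HK1 rose by 1.40, 1.35, 1.22, 1.08 and 0.64. PFKL, ALDOA, GYS1, LDHB and LDHA fell by 0.84, 0.50, 0.49, 0.22 and 0.21; GYS1 is the muscle glycogen synthase and the others are glycolytic enzymes.

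SREBF2, the master factor of cholesterol synthesis, averaged 206.6 ± 7.19 CPM under sh43 and 436.6 ± 2.37 CPM under shCtrl (log2 change -1.08, SE 0.04; edgeR, adjusted p = 1.53e-17). Of 25 cholesterol genes 11 fell (44%, against 35.3% of all tested genes) and 6 rose (24%, against 33.5%), with a median of -0.02 that ranged from -0.07 to 0.01 over the alternatives. TM7SF2, SCAP, LSS and FDFT1 fell by 1.55, 0.44, 0.42 and 0.42, and PMVK, MVK, INSIG1 and CYP51A1 rose by 0.51 or less. Of 21 genes of fatty acid synthesis and storage 13 fell and 5 rose. The stearoyl desaturase SCD averaged 306.6 ± 13 CPM under sh43 and 1412 ± 63.2 CPM under shCtrl, and the desaturases FADS2 and FADS1 fell by 1.05 and 0.77, the triglyceride enzyme DGAT1 by 0.88 and the factor SREBF1 by 0.78. DGAT2 rose by 1.75 and the carnitine transferase CPT1A by 0.80.

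Of 27 collagens, laminins and other matrix genes 12 rose (44.4%, against 33.5% of all tested genes) and 13 fell (48.1%, against 35.3%), with 5 higher and 8 lower past 2-fold. The laminin chain LAMA5 had 22.9, 29 and 30.4 CPM under sh43, 223.8, 198.5 and 211 CPM under sh45, and 235.7, 199.4 and 221.5 CPM under shCtrl. The sh43 libraries alone were low, and shCtrl libraries held 7.98 times their level (edgeR, adjusted p = 1.86e-21). The basement membrane collagen COL4A2 fell by 2.10, COL8A1 by 2.05, COL12A1 by 1.81 and the proteoglycan LUM by 2.10 from a low level. COL6A3 averaged 559.3 ± 39.8 CPM under sh43 and 100.5 ± 13.4 CPM under shCtrl, and the laminin-332 chain LAMB3 averaged 275.5 ± 20.6 CPM under sh43 and 53.5 ± 2.04 CPM under shCtrl. Tenascin C (TNC) and COL13A1 rose by 2.57 and 2.84. LAMA4 rose with 141 reads under sh43 and 4 under shCtrl in all, a ratio of 34.7 (exact 95% interval 13.2 to 129).

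Of 20 metalloproteinases and members of the plasminogen system 11 rose (55%, against 33.5% of all tested genes) and 8 fell (40%, against 35.3%). Beside MMP1, the plasminogen activator inhibitor SERPINB2 had 98 reads under sh43 and 0 under shCtrl in all. The tissue activator PLAT rose by 3.27 and thrombomodulin (THBD) and TFPI2 by 1.83 and 1.67. The gelatinase MMP2 averaged 84.1 ± 1.36 CPM under sh43 and 293.5 ± 5.13 CPM under shCtrl, MMP7 fell by 2.31, ADAM9 by 0.98 and MMP14 by 0.40. MMP15 fell by 0.25, a call that ended without shCtrl replicate 2 (edgeR, adjusted p = 0.0552).

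Of 26 integrins and adhesion receptors 13 rose (50%, against 33.5% of all tested genes) and 11 fell (42.3%, against 35.3%). The adhesion molecule L1CAM had 31.2, 29.3 and 30.3 CPM under sh43, 1.96, 2.05 and 4.39 CPM under sh45, and 3.68, 5.15 and 3.57 CPM under shCtrl. It was high under sh43 alone. The cadherin CDH13 rose by 2.29, CD44 by 2.03 and the integrin ITGA2 by 1.11. The kidney cadherin CDH16 averaged 7.27 ± 0.514 CPM under sh43 and 71.9 ± 6.73 CPM under shCtrl, and ITGB4, MCAM, ALCAM and the fetal kidney cadherin CDH6 fell by 1.66, 1.36, 1.13 and 1.06.

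Epithelial and kidney tubule genes fell in 13 of 27 cases (48.1%, against 35.3% of all tested genes). They rose in 11 (40.7%, against 33.5%), with a median of -0.35. PDZK1, a scaffold of the brush border, averaged 23 ± 1.68 CPM under sh43 and 168.2 ± 3.1 CPM under shCtrl (log2 change -2.87, SE 0.07; edgeR, adjusted p = 1.01e-22). USH1C, the aminopeptidase ENPEP and PDZK1IP1 fell by 2.61, 1.60 and 1.40. Claudin 1 (CLDN1), keratin 7 (KRT7) and the peptidases MME and ANPEP rose by 1.64, 1.46, 1.26 and 0.93. EPCAM was higher by 0.84, a call that ended in 5 of 14 alternatives, among them the fits without sh43 replicate 1 (edgeR, adjusted p = 0.0519), without sh43 replicate 2 (edgeR, adjusted p = 0.0695), without shCtrl replicate 1 (edgeR, adjusted p = 0.102) and without shCtrl replicate 2 (edgeR, adjusted p = 0.0856).

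Of 23 growth factor receptors and ligands 9 rose (39.1%) and 10 fell (43.5%), not far from the 33.5% and 35.3% of all tested genes. The receptors FGFR2 and FGFR3 fell by 3.15 and 2.89, the binding protein IGFBP3 by 1.42 and ERBB2 by 1.00. FGFR2 averaged 1.39 ± 0.155 CPM under sh43, 0.332 ± 0.231 CPM under sh45 and 12.3 ± 1.78 CPM under shCtrl, and was higher under sh43 than under sh45 (log2 difference 2.06; edgeR, adjusted p = 0.000173). Placental growth factor (PGF) rose by 3.23, and the EGF receptor ligands AREG, HBEGF, EREG and NRG1 by 2.22, 1.62, 1.44 and 0.58. Of 31 Wnt and TGF-beta pathway genes 14 rose (45.2%) and 10 fell (32.3%). WNT7B, the receptor FZD8, the betaglycan receptor TGFBR3 and the activin subunit INHBA were higher by 2.85, 2.34, 2.28 and 2.12, and ID1 and TGFB1 lower by 1.24 and 1.06. Of 18 YAP targets 5 rose (27.8%) and 8 fell (44.4%). The ectonucleotidase NT5E rose by 3.05 and tissue factor F3 by 1.89, the muscle ankyrin repeat protein ANKRD1 was 7.97 times as high under sh43, while TGFB2, CCN1 and WWTR1 fell by 0.98, 0.85 and 0.77.

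Of 31 HOX genes 6 rose (19.4%) and 13 fell (41.9%), against 33.5% and 35.3% of all tested genes, led by HOXD1 (1.17) and HOXA3 (-1.06). HOXD9 and HOXD11 were higher by 0.30 and 0.39, calls that ended without sh43 replicate 1 (edgeR, adjusted p = 0.0785 and 0.0789) and without shCtrl replicate 3 (edgeR, adjusted p = 0.0871 and 0.143). Of 10 high-mobility-group genes 6 rose, with HMGA2 at 2.04 beside HMGA1. HMGN3 fell by 0.50. Of 35 nuclear-encoded respiratory chain genes 18 rose (51.4%) and 8 fell (22.9%). The complex II subunit SDHD, at -1.52, was the one past 2-fold, while ATP5MC1, NDUFA9 and NDUFB8 rose by 0.80, 0.75 and 0.58. Of 14 genes of the small RNA machinery, on which hairpins depend, 5 rose (35.7%) and 6 fell (42.9%), near the shares of all tested genes. None was past 2-fold, with AGO2 higher by 0.72, XPO5 by 0.45 and AGO4 lower by 0.90. Of 6 tested replication-dependent histone genes 1 rose and 2 fell, transcripts that mostly lack poly(A) tails.

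Both hairpins to ZHX2 are set against the same shCtrl libraries, so their changes against control are not independent, and the difference between the hairpins was tested directly. That difference passed in 9088 of 13597 genes (66.8%), with 4443 higher (32.7%) and 4645 lower (34.2%) under sh43 than under sh45 (edgeR, Benjamini-Hochberg). Past 2-fold, 12.6% of tested genes differed, 4.55% higher and 8.1% lower under sh43. Under sh45 against shCtrl 7148 genes passed (52.6%), 7.24% past 2-fold, against 68.8% and 15.7% under sh43. Of the 2132 genes past 2-fold under sh43, 1649 lay further from control under sh43 than under sh45 by that test, 66 lay further under sh45, and 417 did not pass. That choice of genes favours sh43. Of the 985 genes past 2-fold under sh45, 211 lay further from control under sh43, 403 lay further under sh45, and 371 did not pass. For TGM2 the difference did not pass, with an average of 1253 ± 37.3 CPM under sh43 and 1271 ± 13 CPM under sh45 (log2 difference -0.02; edgeR, adjusted p = 0.632).

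Changes also went with the level, length and kind of gene, and these traits were not separated. Among the lowest of 4 equal classes of genes by mean level, 0.186 to 7.84 CPM, 11.2% were higher and 21.1% lower past 2-fold, with a median log2 change of -0.25. In the highest class, 70.8 to 11600 CPM, these shares were 3.56% and 4.59% and the median was 0.10. By effective length, 39.1% rose and 28.3% fell in the shortest of 4 equal classes, and 27.6% and 41.7% in the longest. Of 793 long noncoding RNA genes 15% rose and 36.3% fell, with a median of -0.34, beside 18.4% and 33.6% in the lowest level class. Of 12516 protein-coding genes 35% rose and 35.3% fell, with a median of -0.01. By chromosome, between 63.2% (chromosome 13) and 72.2% (chromosome 7) of tested genes passed.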

How the data were processed

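Per the labels' protocols, TruSeq RNA v2 libraries, which carry no strand information, were read as paired ends of 150 bases. Salmon 0.11.3, STAR 2.5.2b, cutadapt 1.12, hg19 and DESeq2 1.14.1 appear in the submitters' processing notes without their order. The deposited tables give, per the file headers, an estimated count, a TPM value and a length and effective length for each of 60422 transcripts. The authors' estimated counts were whole within 1e-06; they were rounded and summed to 27064 gene symbols with RefSeq names, and 437 transcripts without a name, 0.0854% to 0.108% of counts, were left out. The authors' TPM values were summed likewise and used for levels of single genes only, and the deposited effective lengths for one alternative.

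The 9 libraries of the ZHX2 experiment entered one edgeR 4.0.16 quasi-likelihood fit (R 4.3.3) with filterByExpr and TMM factors, which left 13597 genes and 6 residual degrees of freedom. P-values were adjusted by Benjamini-Hochberg over all genes and called under 0.05. The procedure was tested on simulated data. In that simulation few genes changed, none of them of low count. It therefore does not speak to the scaling where most genes pass, or to genes of low level. Groups followed the titles. Total counts of 12733710 to 15613947 per library set the counting precision; exact 95% intervals cover counting error only. Alternatives were DESeq2 1.42.0, other scaling factors, other filters, effective-length offsets, the compared groups alone, a replicate block and each replicate left out.

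The comparison and the gene lists were chosen with earlier results of these data known. Named were a fixed set around ZHX2, the 12 largest rises and falls with at least 5 CPM and groups that did not overlap, the 5 smallest p-values in each direction, up to 5 called genes a direction from each list, and 3 tested neighbours on each side of ZHX2. Ribosomal proteins named singly, VEGFA, HSPA1B, C4B and the line markers were added after values were seen. The USP13 libraries were not used here. Some genes that the naming rule selects are not reported here.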

Additional observations from a re-analysis of the deposited data

Results flagged for a closer look

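Between the hairpins, 1269 genes (9.33% of those tested) passed in opposite directions under sh43 and sh45 against the shared shCtrl libraries and also differed between the hairpins by test, of which 28 were past 2-fold in both. Among genes named here, those past 2-fold in both follow, each with a difference between groups that was itself tested. ANKRD1, a muscle ankyrin repeat protein and YAP target, differed by a log2 value of 4.24 between sh43 and sh45, higher under sh43. HBEGF, a ligand of the EGF receptor, differed by 3.17, higher under sh43. SLC7A2, an importer of cationic amino acids, differed by -3.14, lower under sh43 (edgeR for all of these).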

How the results depend on the processing

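The number of genes called between sh43 and shCtrl was 9353 and lay between 8858 and 9650 over 14 alternatives, from 8858 to 9285 when a replicate was left out and 8960 with DESeq2. Between sh43 and sh45 it was 9088 and lay between 8452 and 9269, from 8452 to 8592 when a replicate was left out. Same-numbered replicates showed no shared deviation (correlations of -0.0649 to 0.0385), and differently numbered ones gave -0.076 to 0.0876. Counting noise can hide a pairing in such values, so they do not settle it, and the main fit used none. With a replicate block 9231 genes passed against shCtrl and 8966 against sh45. The share of higher genes among those called against shCtrl ran from 44.8% with upper-quartile factors to 50.8% with DESeq2, beside 48.8%. Of 348 named genes followed through 4862 gene-by-alternative values, 4782 kept their side of the threshold, 76 lost and 4 gained a call, in 19 genes, and 0 changed direction. With 3 libraries a group and unknown independence of cultures, small changes are limited by a spread that may be technical, and low-count folds by counting error.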
